A study of Rattus norvegicus with 4 samples.

Results

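Colony stimulating factors and inflammatory cytokines were followed through RNA sequencing of NRK-52E, an established rat kidney epithelial line. The members were the table rows whose symbol was Csf1, Csf2, Csf3, Lif, Il6, Il1a, Il1b, Tnf, Il33 or Il18, and 8 of these 10 symbols had a row among the 17768 genes of the full table. No row carried Il1a or Tnf as its symbol, so the expression of these genes was not analysed here. The titles split the 4 libraries into lv_nc (n = 2) and lv_Mettl3 (n = 2). The labels describe a stable line made by lentiviral delivery of a murine Mettl3 cDNA from a vector with a puromycin marker. Every sample carries the same protocol text, including puromycin selection, and the same treatment label, untreated. What nc stands for, whether the line is a single clone and whether replicates came from separate cultures are not stated, so each p-value reflects the spread between libraries, which can be technical. The study title asks how overexpression of METTL3, the enzyme that places N6-methyladenosine on messenger RNA, changes gene expression in these cells.

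Colony stimulating factors are secreted proteins that make blood progenitors survive, divide and mature. Csf1 acts on macrophages, Csf2 on granulocytes and macrophages, and Csf3 on neutrophils. Lif and Il6 belong to a cytokine family that signals through the shared receptor subunit gp130, encoded by Il6st, with JAK kinases and STAT3 below it. Il1b, Il18 and Il33 belong to the interleukin 1 family, whose receptors signal through Myd88 and NF-kB. Il1b and Il18 are made as precursors and cut by caspase 1, while Il33 is stored in the nucleus and set free by damaged cells. In the kidney, tubular cells make Csf1, which supports macrophages during repair of the tubule, and injured tubular cells are a known source of several of the others.

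The libraries held between 15068898 and 16622255 recovered gene reads. Values are normalized read counts, that is, reads divided by a size factor per library, so that 1 read is worth between 0.923 and 1.06. Mettl3 itself stood at 719 and 767 in lv_nc (replicates 1 and 2, the order kept throughout) and at 757 and 700 in lv_Mettl3. Its groups overlapped, so each direction here is that of the libraries labelled lv_Mettl3. How far reads of the murine cDNA were counted in this rat gene was not determined. Of the epithelial markers, Krt8 was abundant (28296 to 33065) and Cdh1, Cdh16, Krt19 and Pax8 stayed under 10 in every library, while Epcam and Krt18 were not analysed here. Of 7 proximal tubule markers with a row, Ggt1, a brush border peptidase, was at 2412 and 2530 in lv_nc and rose to 3294 and 3757 in lv_Mettl3 (DESeq2 log2 fold change 0.51, adjusted p = 0.0345), while the endocytic receptor gene Lrp2 and the water channel gene Aqp1 stayed under 7. Few of the defining markers of the proximal tubule were thus read at more than a low level.

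The data show 3 well-read cytokine genes that were higher in lv_Mettl3 and 5 genes near the detection limit. Csf1, Csf3 and Lif rose by DESeq2, by 2.44-fold, 3.26-fold and 2.04-fold. They took between 98.8% and 99.4% of the reads of the 8 genes in each library. Csf2, Il6, Il1b, Il18 and Il33 had at most 8 reads in any library. DESeq2, a negative binomial test on the recovered reads, called a gene at a Benjamini-Hochberg adjusted p under 0.05. It gave an adjusted p to 3 of the 8 genes and called all 3 higher. Of the 12601 genes with an adjusted p it called 2.52%, with 1.45% higher, 1.07% lower and 0.714% at least 2-fold higher. Limma on log2(value + 1), the planned test for normalized values, called 0 of the 8, where it called 0.0183% of 16391 genes. Csf1, Csf3 and Lif were higher at an unadjusted limma p under 0.05, as were 5.54% of all genes (10.5% in either direction). Csf2 was too, but entered the test only through the lv_Mettl3 libraries and is not counted with them. The edgeR quasi-likelihood test and limma-voom called 0 of the 8 and 0.0305% of all genes each. In both, Csf1, Csf3 and Lif were higher at an unadjusted p under 0.05, where 5.31% and 5.64% of all genes were higher. Csf2 was under that p in both, but passed the same filter only through lv_Mettl3 and is again not counted. Limma with robust empirical Bayes called 1, Csf1, where it called 0.116% of all genes higher. In RNA from whole cultures, a change in the share of producing cells and a change in RNA per cell cannot be told apart.

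**Figure D1:**
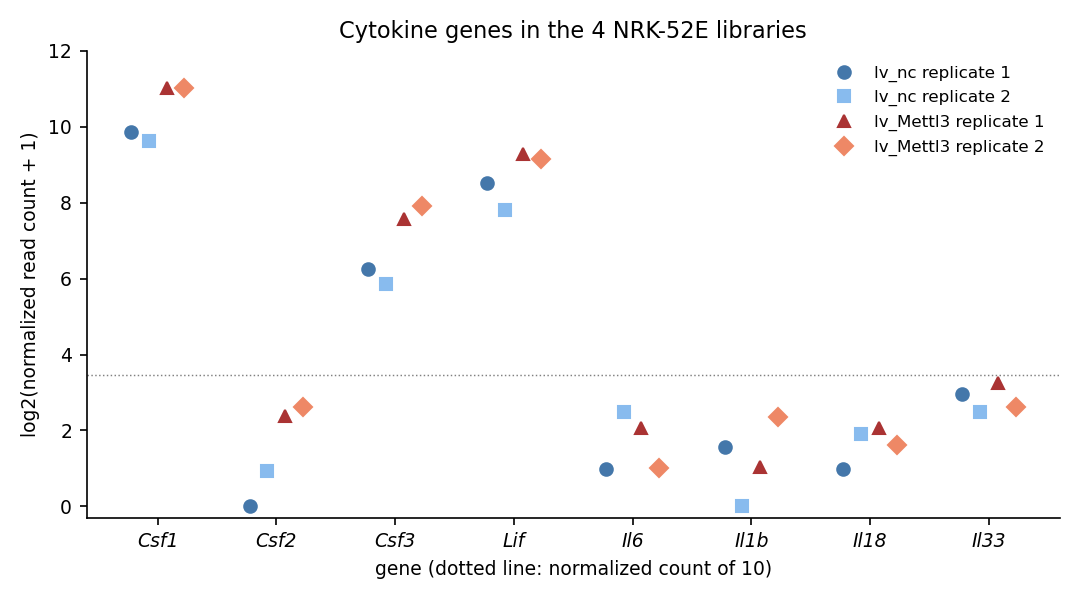
Expression of the 8 cytokine genes with a row, as log2(normalized read count + 1), with 1 point per library (n = 2 per group). Csf1, Csf3 and Lif have both lv_Mettl3 libraries above both lv_nc libraries, and the other 5 genes lie under the dotted line at a normalized count of 10.

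Csf1 (ENSRNOG00000018659, chromosome 2, 210522375 to 210550560 minus strand, in the unnamed build of the deposited table) stood at 924 and 787 in lv_nc and at 2093 and 2091 in lv_Mettl3. Both lv_Mettl3 libraries were above both lv_nc libraries and differed from each other by a factor of 1.001. The means were 856 ± 96.7 and 2092 ± 1.64 (SD, n = 2), a log2 fold change of 1.29 in DESeq2 (SE 0.17, adjusted p = 1.81e-11). In limma it was 1.29 (SE 0.11, adjusted p = 0.162), and robust empirical Bayes gave an adjusted p of 0.0455. Without any 1 library the DESeq2 log2 fold change lay between 1.17 and 1.41 with an adjusted p of at most 0.00743, so Csf1 was called in each of these 4 fits. The limma log2 fold change of Csf1 lay between 1.18 and 1.41 in these fits. There the lone library of a group is assumed to vary like the other group. Limma called more genes over the whole table in each of them than on all 4 libraries, so its calls of Csf1 there are not counted as support.

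Csf3 (ENSRNOG00000008525, chromosome 10, 86616785 to 86619157, plus strand) encodes granulocyte colony stimulating factor. It stood at 75.2 and 57.2 in lv_nc against 190 and 242 in lv_Mettl3, which correspond to 77, 62, 179 and 234 reads. The groups did not overlap, and lv_Mettl3 replicate 2 was the highest library. The means were 66.2 ± 12.7 and 216 ± 36.8, a DESeq2 log2 fold change of 1.71 (SE 0.35, adjusted p = 0.000234) and a limma log2 fold change of 1.69 (SE 0.25, adjusted p = 0.319). Without lv_Mettl3 replicate 1 the DESeq2 adjusted p was 0.181 and without lv_Mettl3 replicate 2 it was 0.935, so the call ended in both, at log2 fold changes of 1.86 and 1.52. It held without lv_nc replicate 1 (adjusted p = 0.000396) and without lv_nc replicate 2 (adjusted p = 0.0266).

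Lif (ENSRNOG00000007002, chromosome 14, 84482674 to 84500642, plus strand), named for the leukaemia inhibitory activity of its protein, stood at 363 and 222 in lv_nc against 622 and 568 in lv_Mettl3. The groups did not overlap, but the lv_nc libraries differed from each other 1.64-fold, against 1.09-fold in lv_Mettl3. The means were 292 ± 100.3 and 595 ± 38.2, a DESeq2 log2 fold change of 1.03 (SE 0.26, adjusted p = 0.00776) and a limma log2 fold change of 1.06 (SE 0.26, adjusted p = 0.399). The DESeq2 call was lost without lv_nc replicate 2 (log2 fold change 0.71, adjusted p = 0.16), without lv_Mettl3 replicate 1 (0.95, adjusted p = 1) and without lv_Mettl3 replicate 2 (1.09, adjusted p = 0.828). Without lv_nc replicate 1 it was 1.42 (adjusted p = 2.46e-06). Over the 4 fits on 3 libraries the DESeq2 log2 fold change ran from 0.71 to 1.42 for Lif. It ran from 1.52 to 1.91 for Csf3 and from 1.17 to 1.41 for Csf1. The number of genes called over the whole table also swung with the library left out, so calls kept or lost there do not rank these genes.

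In lv_nc, replicate 1 was above replicate 2 for all 3 of these genes, by 1.17-fold for Csf1, 1.31-fold for Csf3 and 1.64-fold for Lif. Between the lv_Mettl3 libraries there was no shared order, since replicate 2 was the higher for Csf3 and replicate 1 for Lif. Per kilobase of deposited gene length, Csf3 stood at 0.255 and 0.228 of Csf1 in the lv_nc libraries and at 0.284 and 0.362 of it in the lv_Mettl3 libraries, so these groups did not overlap. The ratio of Lif to Csf1 on that scale was 0.715 and 0.512 in lv_nc and 0.541 and 0.494 in lv_Mettl3, and these groups overlapped. That of Csf3 to Lif was 0.357 and 0.445 in lv_nc and 0.525 and 0.733 in lv_Mettl3, without overlap. How often the ratios of other gene pairs lack overlap was not examined. With 2 libraries against 2, an exact permutation test of a ratio cannot reach p under 0.05 and none was run.

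**Figure D2:**
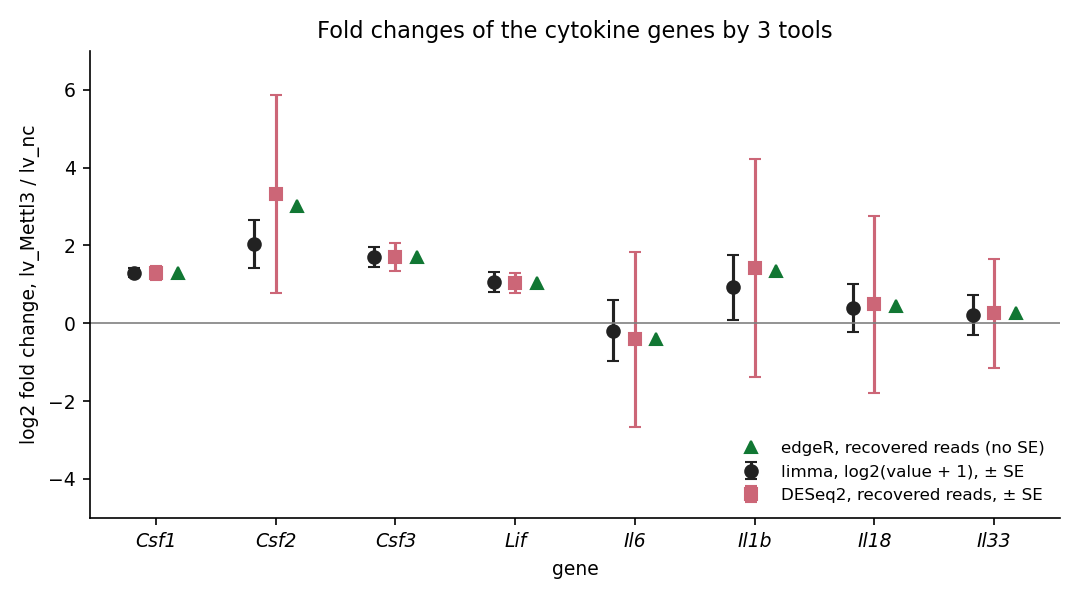
Log2 fold changes of lv_Mettl3 against lv_nc for the 8 genes, from limma and DESeq2 with standard errors and from edgeR without. The 3 tools lie together for Csf1, Csf3 and Lif and spread apart for Csf2, where the pseudocount holds the limma value at 2.04 against 3.32 in DESeq2.

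Csf2 (ENSRNOG00000026805, chromosome 10, 39602089 to 39604070, minus strand), which encodes granulocyte-macrophage colony stimulating factor, had 0 and 1 reads in lv_nc and 4 and 5 reads in lv_Mettl3. The groups did not overlap, with normalized counts of 0 and 0.923 against 4.24 and 5.17. It passed the limma filter, which asks for 2 libraries with a value of 1 or more, only through the lv_Mettl3 libraries. The ratio of its reads, scaled by size factors, was 9.92 with an exact 95% interval of 1.37 to 435, which covers counting error only. DESeq2 gave no adjusted p (unadjusted p = 0.193), and the limma adjusted p was 0.452. Because Csf2 entered through the lv_Mettl3 libraries alone, its lack of overlap and its read ratio cannot establish a difference. With so few reads the size of any difference is not fixed either.

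Il6 (ENSRNOG00000010278, chromosome 4, 3043231 to 3047807), the best-known inflammatory member of the gp130 family, had 1 and 5 reads in lv_nc and 3 and 1 reads in lv_Mettl3. The groups overlapped, and the scaled read ratio was 0.735 (exact 95% interval 0.153 to 3.10). Its limma log2 fold change was -0.19 (SE 0.78, adjusted p = 0.936). Il6 was therefore near the limit of detection in both groups.

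The interleukin 1 family genes were likewise read a few times per library. Il1b (ENSRNOG00000004649, chromosome 3, 121876263 to 121882726) had 2 and 0 reads in lv_nc and 1 and 4 in lv_Mettl3, a scaled ratio of 2.76 (exact 95% interval 0.451 to 28.9). Il18 (ENSRNOG00000009848, chromosome 8, 54993859 to 55016299) had 1 and 3 reads in lv_nc and 3 and 2 in lv_Mettl3, a ratio of 1.38 (0.297 to 6.95). For both genes the libraries of the groups overlapped. Il33 (ENSRNOG00000016456, chromosome 1, 248132090 to 248147029) was the best read of the family, with 7 and 5 reads in lv_nc and 8 and 5 in lv_Mettl3, a ratio of 1.19 (0.502 to 2.86). Its groups overlapped too. The limma adjusted p was 0.692 for Il1b, 0.828 for Il18 and 0.90 for Il33, and DESeq2 gave none of them an adjusted p. A ratio as large as that of Csf1 lies inside each of these 3 intervals and is not excluded by these counts.

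Csf1, Csf3 and Lif were higher in both lv_Mettl3 libraries, 0 of the 8 genes were lower in both, and 4 overlapped. Csf2 was also higher without overlap but, having passed the filter only through lv_Mettl3, had to be. Among all genes tested, 23.5% were higher without overlap and 45.0% were separated in either direction, so a lack of overlap is common in these libraries. A gene described in the table as tumor necrosis factor-like, LOC103694380 on chromosome 20 (4855829 to 4858447), is not one of the members. It was looked up after the values were seen and had 0 and 5 reads in lv_nc and 1 and 0 in lv_Mettl3. It spans 2619 bases, as does Tnf in the RefSeq annotation of GRCr8, but whether it is the same gene was not determined.

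**Figure D3:**
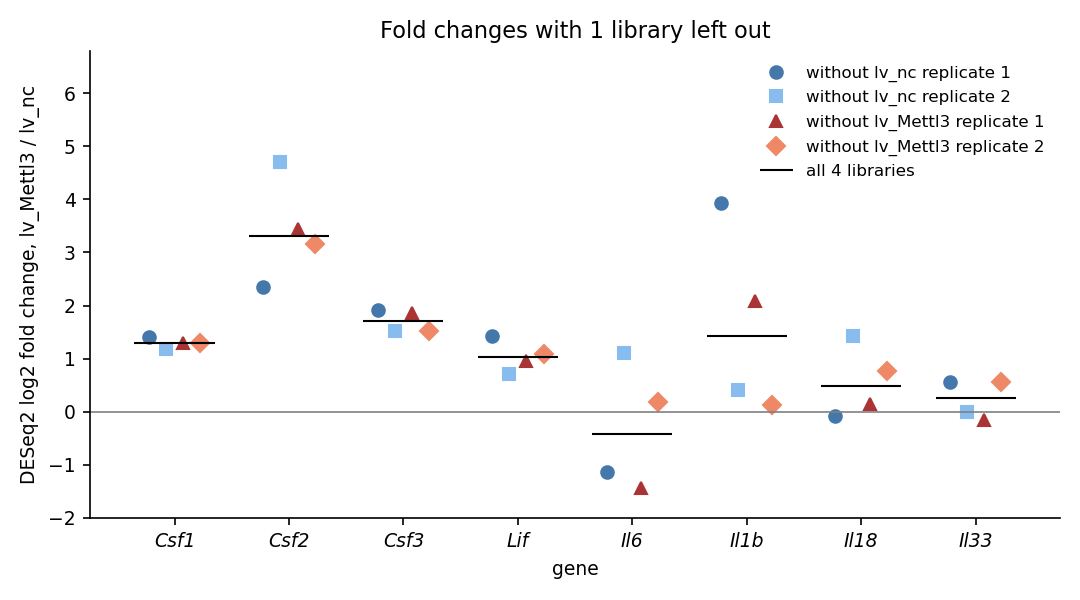
DESeq2 log2 fold changes of the 8 genes with all 4 libraries (bars) and with each library left out in turn (points). Csf1, Csf3 and Lif stay above 0 throughout, with the narrowest span for Csf1 (1.17 to 1.41). The low-count genes Csf2 (2.35 to 4.71) and Il1b (0.12 to 3.93) also stay above 0, while Il6, Il18 and Il33 cross it.

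Promoter windows, taken from RefSeq on build GRCr8 from 250 bases before to 50 after the gene start, were found for 7 of the 10 symbols. Csf1, Csf3 and Lif had none. Letters were searched on both strands for a kappa B core (GGANTTTCC, present in 1.28% of all 33469 windows), an AP-1 motif (TGANTCA, 7.33%), a STAT motif (TTCNNNGAA, 8.87%) and a TATA box (TATAAA, 14.2%). NF-kB and AP-1 motifs are widely studied in the Il6 and Csf2 promoters. These 2 windows are shown because the genes are the gp130 and colony stimulating members left near the detection limit, with matches to the searched letters in capitals. The Il6 window (chr4:5894526-5894825, minus strand) holds a kappa B core match that begins at base -67, and the Csf2 window (chr10:38889624-38889923, minus strand) holds a STAT match that begins at base -228.
Il6: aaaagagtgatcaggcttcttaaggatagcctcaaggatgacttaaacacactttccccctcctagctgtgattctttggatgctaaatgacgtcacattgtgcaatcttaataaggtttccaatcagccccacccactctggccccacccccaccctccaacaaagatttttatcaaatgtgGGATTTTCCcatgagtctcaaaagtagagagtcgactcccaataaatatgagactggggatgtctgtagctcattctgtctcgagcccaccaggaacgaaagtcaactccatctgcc
Csf2: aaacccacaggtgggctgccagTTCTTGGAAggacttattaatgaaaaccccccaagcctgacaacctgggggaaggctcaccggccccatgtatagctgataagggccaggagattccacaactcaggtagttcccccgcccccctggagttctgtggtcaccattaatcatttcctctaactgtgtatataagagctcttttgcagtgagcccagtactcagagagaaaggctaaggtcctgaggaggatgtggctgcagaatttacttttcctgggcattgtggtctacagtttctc
Il6 was the only member with a match to these kappa B core letters among the 8 windows of these 7 genes, and Il1a and Il18 the only ones with an AP-1 match. Csf2 was the only one with a STAT match, and TATA box matches were found for Il33, Il1a, Il1b and Tnf. Other forms of the motifs were not searched, so a window without a match can still hold one. These matches are letters in a window and were not tested against the counts.

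Per kilobase of deposited gene length, the order of mean levels over the 4 libraries was Csf1 (364), Lif (199), Csf3 (109), Csf2 (5.86), Il33 (2.57), Il6 (2.35), Il18 (2.23) and Il1b (1.28), in normalized counts per kilobase. Csf1 was above Lif and Lif above Csf3 in 4 of 4 libraries, although the ranges over libraries of each pair overlapped. Csf3 was 18.6 times Csf2, and those ranges did not overlap. From Csf2 down, the ranges of neighbours overlapped, so their order is not set by these data. Among all genes of the table, 84.7% had a lower mean normalized count than Csf1, 62.2% a lower one than Lif and 46.5% a lower one than Csf3. For the other 5 the share ran from 13.6% for Il1b to 23.5% for Il33.

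Receptors and decoys of these cytokines were read at very unequal levels. Of 20 symbols in that list, 17 had a row, 16 were tested by limma and 11 had a DESeq2 adjusted p. The median limma log2 fold change was 0.20, against 0.01 for all genes, and 0.38 without lv_nc replicate 2. DESeq2, limma, edgeR and robust limma each called 0. At an unadjusted limma p under 0.05 there were 5 higher and 0 lower, where 5.54% of all genes were higher and 10.5% passed in either direction. Highest in normalized count were Tnfrsf1a, the main TNF receptor, at 2377 and 2664 in lv_nc and 2378 and 2386 in lv_Mettl3, and Il6st at 2031 and 1952 against 2286 and 2387. Tnfrsf1a overlapped between groups and Il6st did not (limma adjusted p = 0.773 and 0.473).

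Receptors that pair with the members are given next, outside the naming rule and after their values were seen. Some did not overlap between groups and others did, where 45.0% of all tested genes did not overlap and 23.5% were higher without overlap. Limma and DESeq2 called 0 of the genes given. Csf1r, the receptor for Csf1, stood at 0.977 and 1.85 in lv_nc against 3.18 and 11.4 in lv_Mettl3. Lifr, the specific subunit of the receptor for Lif, had 1.95 and 1.85 against 9.54 and 12.4. Neither overlapped between groups, and both stayed under 13 in every library. Per kilobase their mean levels were 1.09 and 1.19, against 364 for Csf1 and 199 for Lif. Il1r1, the signalling receptor of interleukin 1, stood at 1390 and 1554 in lv_nc against 1713 and 1913 in lv_Mettl3. Il1rn, the antagonist that blocks that receptor, had 6.84 and 14.8 against 40.3 and 43.4 (limma log2 fold change 1.95, SE 0.48, adjusted p = 0.399, DESeq2 adjusted p = 0.206). Il1r1 and Il1rn did not overlap between groups. Csf2ra, a receptor subunit for Csf2, did not either (15.6 and 20.3 against 30.7 and 34.1).

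For Il6, Il18 and Il33 the receptors gave a mixed picture. Il6r, the specific subunit for Il6, overlapped, with 198 and 402 in lv_nc against 226 and 278 in lv_Mettl3 (limma log2 fold change -0.17). The Il18 receptor gene Il18r1 overlapped as well, at 74.3 and 137 against 110 and 116, while its partner Il18rap did not, at 72.3 and 25.8 against 90.1 and 101. Il1rl1, the receptor for Il33, had 3.91 and 0.923 against 0 and 1.03, and overlapped. Il1rap, the shared subunit of the interleukin 1 and 33 receptors, was at 336 and 346 against 372 and 354, without overlap.

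**Figure D4:**
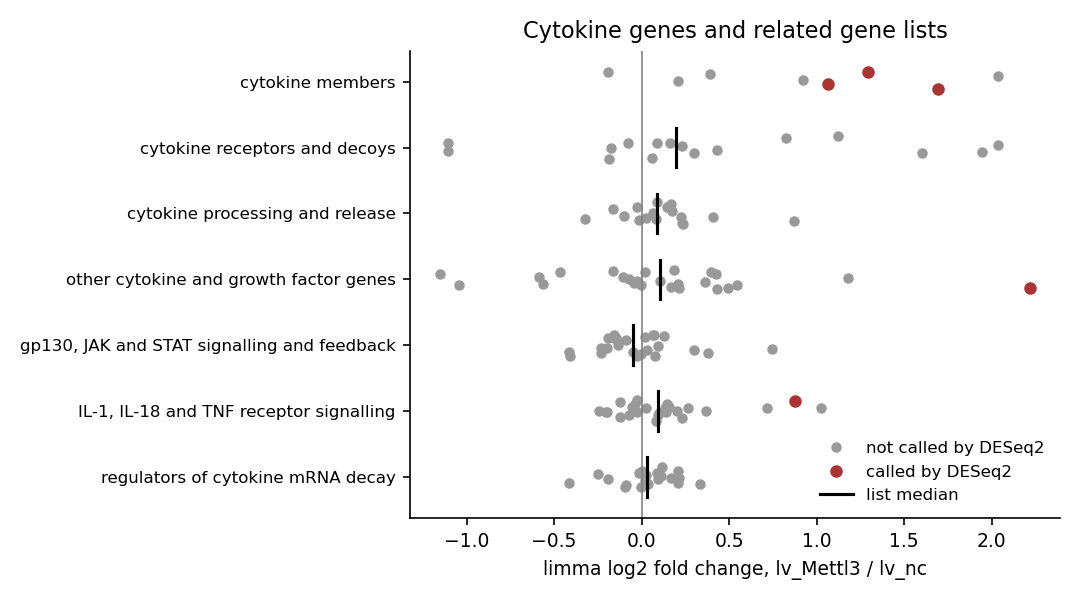
Limma log2 fold changes of lv_Mettl3 against lv_nc for the 8 cytokine genes and for 6 related gene lists, with 1 point per gene, DESeq2 calls in red and list medians as bars. The list medians lie between -0.05 and 0.20, and outside the 8 genes DESeq2 called Il24 and Tnfaip3.

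Genes for the processing and release of cytokines showed no call in the fits on all 4 libraries. All 18 symbols had a row, 17 were tested by limma and 14 had a DESeq2 adjusted p. DESeq2, limma, edgeR and robust limma called 0, where DESeq2 called 2.52% of all genes with an adjusted p. None had an unadjusted limma p under 0.05, where 10.5% of all genes passed in either direction. The median log2 fold change was 0.09, and it was -0.04 without lv_nc replicate 1 and 0.25 without lv_nc replicate 2. Capn2, a calpain protease, and Adam10, a sheddase, had the highest counts, at means of 4528 ± 80.4 and 4895 ± 1050 in lv_nc and 4448 ± 150 and 4510 ± 147 in lv_Mettl3.

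Other cytokine and growth factor genes gave 1 DESeq2 call. Of 39 symbols 25 were tested by limma and 17 had a DESeq2 adjusted p. Among all genes with an adjusted p, DESeq2 called 2.52%. Il24, which encodes an interleukin 10 family cytokine, stood at 50.8 and 22.2 in lv_nc against 137 and 188 in lv_Mettl3. Its groups did not overlap, and the DESeq2 log2 fold change was 2.16 (SE 0.46, adjusted p = 0.000474; limma adjusted p = 0.378). The call ended without lv_nc replicate 2 (log2 fold change 1.67, adjusted p = 0.0501), without lv_Mettl3 replicate 1 (2.36, adjusted p = 0.169) and without lv_Mettl3 replicate 2 (1.90, adjusted p = 1), and held without lv_nc replicate 1 (2.87, adjusted p = 1.4e-05). Highest in normalized count were Spp1, osteopontin, at 29091 and 34942 in lv_nc and 42956 and 40914 in lv_Mettl3, and Ctf1, a gp130 family cytokine, at 388 and 416 against 340 and 379. Limma and edgeR called 0 of these genes. At an unadjusted limma p under 0.05 there were 3 higher and 1 lower, where 10.5% of all genes passed in either direction. The median log2 fold change was 0.10. Without 1 library it lay between -0.05 and 0.16.

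Signalling genes below the receptors had 1 call in all. Of 25 genes of gp130, JAK and STAT signalling, DESeq2, limma and edgeR called 0. At an unadjusted limma p under 0.05 there were 1 higher and 1 lower, where 10.5% of all genes passed in either direction. The median was -0.05. Without lv_nc replicate 1 that median was -0.20, and limma called 3 and DESeq2 4 of these genes, each with 2 lower. Over all 6 lists limma called 6 and DESeq2 9 without that library, where DESeq2 called 1547 genes in all. Stat3 was at 4515 and 5344 in lv_nc and 5010 and 5342 in lv_Mettl3, which overlap, and Jak1 was at 4353 and 4732 against 6128 and 5670, which do not (limma adjusted p = 0.823 and 0.405). Of 25 genes of interleukin 1, interleukin 18 and TNF receptor signalling, DESeq2 called 1 higher and 0 lower, and limma and edgeR called 0. DESeq2 called 2.52% of all genes with an adjusted p. At an unadjusted limma p under 0.05 there was 1 higher, where 5.54% of all genes were higher. The median was 0.09 (0.04 to 0.09 without 1 library). The called gene was Tnfaip3, the A20 enzyme that restrains NF-kB, which rose from 164 and 198 to 350 and 314 (DESeq2 log2 fold change 0.88, SE 0.27, adjusted p = 0.043). The call ended in each of the 4 fits without 1 library (adjusted p of at least 0.102), with library size factors (0.0727), without independent filtering (0.0606) and with the replicate block (0.163).

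Tab2 and Irak1, an adaptor and a kinase with the highest counts of that list, had means of 3643 ± 463 and 3030 ± 34.4 in lv_nc and 3573 ± 298 and 3251 ± 88.5 in lv_Mettl3. The 20 regulators of cytokine mRNA decay were RNA-binding proteins such as that of Zfp36 together with deadenylation, decapping and exonuclease factors. On all 4 libraries DESeq2, limma and edgeR called 0 of them, where DESeq2 called 2.52% of all genes with an adjusted p. There were 0 at an unadjusted limma p under 0.05, where 10.5% of all genes passed in either direction. The median was 0.03, and it was between -0.01 and 0.10 without 1 library. Pabpc1, the poly(A) binding protein gene, was at 27092 ± 5304 in lv_nc and 28648 ± 330 in lv_Mettl3, and Ybx1 at 9488 ± 747 and 9481 ± 585.

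Markers of other cell types were read in the same libraries. Of 15 leukocyte and macrophage symbols 7 had a row, and their summed normalized counts were 1813 and 2177 in lv_nc and 2016 and 2154 in lv_Mettl3, nearly all from Cd14 (1776 to 2128). The pan-leukocyte marker Ptprc was not analysed here. Cd3e, Fcgr3a and Spi1 stayed under 5 in every library, no marker with a row was at 0 in all 4, and DESeq2 called 0. Of 11 fibroblast and smooth muscle symbols 7 had a row, and these sums were 13804 and 17925 in lv_nc and 5592 and 4878 in lv_Mettl3. DESeq2 called 4 of them lower, Col1a1, Col1a2, Col3a1 and Acta2. Of all genes with an adjusted p it called 1.07% lower and 1.45% higher. The 7 proximal tubule markers summed to 2481 and 2603 in lv_nc and to 3346 and 3837 in lv_Mettl3, mostly from Ggt1, the only one called. Both sums moved with the groups beside Csf1, Csf3 and Lif, but not every marker of the lists did. Of the proximal tubule markers, Lrp2, Aqp1, Cubn and Anpep had DESeq2 log2 fold changes under 0 (-2.90, -2.82, -0.57 and -0.06). Mme and Slc5a2 were above 0 (0.58 and 0.24) without a call. Of the fibroblast and smooth muscle markers, Tagln (-0.34), Postn (0.06) and Pdgfra (1.13) were not called, and Pdgfra stayed under 5 in every library. The part of these markers in the difference of Csf1, Csf3 and Lif was not tested. The 5 endothelial markers with a row summed to between 70.3 and 156, with no call.

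The genes nearest in pattern to the well-read members were sought over the 4 libraries among 9208 genes with a mean of at least 100, by Euclidean distance of centred log2(value + 1). Nearest to Csf1 were Nav3 (distance 0.14) and Tlr1 (0.15). Nearest to Csf3 were Cyp26b1 (0.21) and Etv5 (0.26), and nearest to Lif were Nfkbiz and Lrp8 (both 0.12). Nfkbiz stood at 374 and 242 in lv_nc against 610 and 614 in lv_Mettl3, so its lv_nc libraries differ in the same order as those of Lif. With 4 libraries many genes can share a pattern, and the distances are a description.

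**Figure D5:**
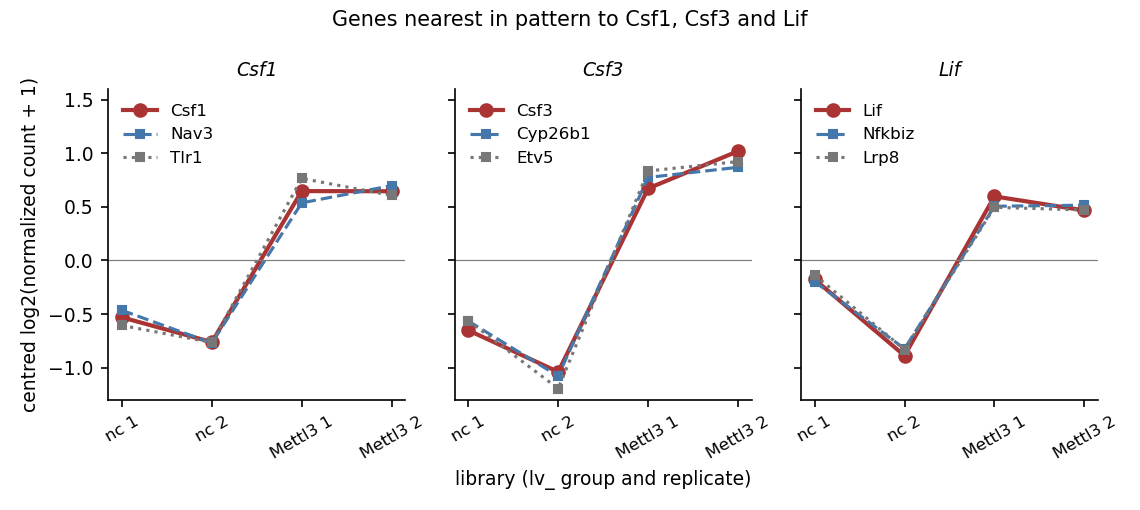
Log2(normalized count + 1), centred on each gene's mean, of Csf1, Csf3 and Lif and of the 2 nearest genes of each over the 4 libraries. Lines only join the points of a gene, and lv_nc replicate 2 is the lowest library in all 9 profiles.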

How the data were processed

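The authors deposited 1 table of genes for the 4 libraries. CASAVA 1.4 and HISAT2 are named in the submitters' processing notes. The sources used here do not give the counter, genome build or annotation. Library columns hold a signal deposited by the authors, gene reads divided by 1 size factor per library (0.943 to 1.08). Within a tolerance of 0.001 reads 100% of values were whole multiples of the smallest, and whole reads were recovered so. Columns of log2 fold change and of p-values were also deposited, as results of the authors' own comparison. Gene lengths, in bases, are as deposited.

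Limma 3.58.1 (trend) was fitted to log2(value + 1) for the 16391 genes that reached 1 in 2 or more libraries. DESeq2 1.42.0 and edgeR 4.0.16 used the recovered reads, in R 4.3.3. The Benjamini-Hochberg threshold was 0.05, with adjustment over the same 16391 genes in limma and edgeR. In DESeq2 it covered the 12601 genes given an adjusted p, and independent filtering left Csf2, Il6, Il1b, Il18 and Il33 without one. An adjusted p that DESeq2 did not give was left missing. Rose is used of DESeq2 calls, because limma called 3 genes in all. The scripts were tested on simulated counts. Exact intervals of read ratios are binomial, at 95%. The smaller deposited table, a subset of the same rows, was not used, and protein sequences, planned for a comparison of members, were not analysed here.

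The members and lists were chosen with earlier results of these data known. Named genes were the members, up to 6 called and the 2 most abundant genes of each list, and the 2 genes nearest in pattern to each member with a mean of at least 100. Alternatives changed the pseudocount, filters, scaling, tool, replicate block and libraries.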

Additional observations from a re-analysis of the deposited data

How the results depend on the processing

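The members called by limma numbered 0 under every alternative on 4 libraries except robust empirical Bayes (1) and DESeq2 (3), and 1 to 3 without 1 library. DESeq2 called 3 members under each alternative scaling or filter and with the replicate block, and 1 to 3 without 1 library. Over all genes limma called 3, but 0 with a pseudocount of 0.1, 5 with at least 1 CPM in all 4 libraries, 5 with limma-voom, 5 with edgeR, 24 with robust empirical Bayes, 318 with DESeq2, and 28 to 1431 without 1 library. DESeq2 called 318, and 56 to 1547 without 1 library, 1547 being without lv_nc replicate 1. Its split was 183 higher and 135 lower, 155 and 150 with library size factors. Of the related lists limma called 0, 2 with DESeq2 and 0 to 6 without 1 library. DESeq2 called 2, but 1 with library size factors, 1 without independent filtering, 1 with the replicate block and 0 to 9 without 1 library.

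Of the low-count members, Il6, Il33 and Il18 reversed sign without 1 library, while Csf2 and Il1b did not in the fits that held them. The log2 fold change of Il6 ran from -0.95 to 0.56 in limma and from -1.44 to 1.10 in DESeq2, and was above 0 without lv_nc replicate 2 and without lv_Mettl3 replicate 2. That of Il33 ran from -0.11 to 0.52 and from -0.15 to 0.56, and was under 0 without lv_nc replicate 2 and without lv_Mettl3 replicate 1. For Il18 it ran from -0.0741 to 0.86 and from -0.0812 to 1.42, and was under 0 without lv_nc replicate 1. The cause was not tested. Replicate numbers come from the titles alone. Over 10051 genes the deviations of same-numbered libraries correlated at 0.33, and with the replicate block limma called 3 genes and DESeq2 272. The DESeq2 adjusted p of Csf3 was 0.00653 with the block.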
